A study of Homo sapiens with 7 samples.

Results

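HNF6 occupancy of chromatin was compared between day 5 and day 10 of pancreatic differentiation, and the regions held on both days were described beside those found on day 5 only and the strongest regions of day 10. A day 5 region counted as shared when it overlapped a day 10 region by at least 1 bp. The day 5 list held 250 distinct HNF6 regions, of which 90.4% (Wilson 95% interval 86.1 to 93.5) were shared and the other 24 were found on day 5 only. They were set beside the 250 highest scoring of the 64919 HNF6 regions of day 10, out of 86081 regions in the 4 lists of the series. The cells were CyT49, a human embryonic stem cell line, with no genetic change or added agent named in the labels, carried through an in vitro pancreatic protocol. Day 5 corresponds to gut tube endoderm and day 10 to pancreatic progenitors positive for NKX6.1, per the labels' protocols. Chromatin immunoprecipitation and sequencing gave 1 peak list for each day from 1 library each, so the days could not be compared over replicates and p-values are not reported. The cells of both days came from a single line. The lists of GATA6 on day 10 and NKX6.1 on day 13 served as further readouts, and the 3 inputs were not analysed here. The title of the NKX6.1 sample names no cell line, whereas those of the HNF6 and GATA6 samples name CyT49. The extraction protocol names an antibody against NKX6.1 for every sample, while the antibody field of both HNF6 libraries reads HNF6.

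HNF6, also named ONECUT1, binds DNA through a cut domain and a homeodomain. It acts early in the foregut endoderm that gives rise to liver and pancreas and is needed there for the onset of the pancreatic programme. GATA6, a zinc finger factor, acts in endoderm and early pancreas, and NKX6.1, a homeodomain factor, marks pancreatic progenitors and later beta cells. A transcription factor may be found both at promoters, which lie at gene starts and are often shared between cell types, and at distal enhancers, which are often specific to a cell type. Whether a given region is a promoter or a distal site, and of which gene, was not analysed here, because no gene annotation or sequence of hg19, the build of the lists, was used. Regions are therefore given by position on hg19, counted from 1, and are described by strength, partners, neighbourhood and chromosome.

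The shared regions fell into a weak and a very strong group by their score on day 10. The authors' peak score has no stated unit and was used to rank regions within a list only. By day 10 score, 144 shared regions lay at or below 800, with a median of 132 (quartiles 87 and 244.5), and 82 lay above it, with a median of 1971 (1531 and 2459). Few lay between, with 14 pairs from 401 to 800 and 22 from 801 to 1600, against 34 from 201 to 400 and 60 above 1600. The lower group is called weak only beside the strong one. Its median and quartiles lay above those of the whole day 10 list, at 79 (48 and 166.5). The whole day 10 list had a single mode: its median score was 79, and only 3.71% (Wilson 95% interval 3.57 to 3.86) of its regions passed 800, against 36.3% (30.3 to 42.7) of the shared pairs. All such intervals reflect counting error alone, since the regions of a list come from 1 library. The limit of 800 was chosen after the scores had been seen, and limits of 400 and 1200 gave 42.5% and 31.4% of pairs above them.

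**Figure D1:**
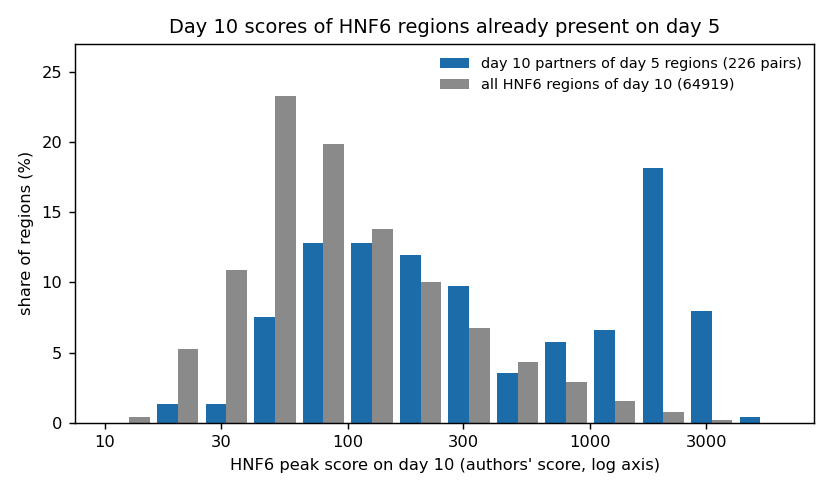
Share of regions (y axis, percent) by HNF6 score on day 10 (x axis, log scale), for the day 10 partners of the shared regions (blue) and for all 64919 day 10 regions (grey), in equal steps of log score. The grey bars have 1 peak, between 40 and 100, whereas the blue bars have a broad low hump from 63 to 251, a dip from 398 to 631 and a second peak from 1585 to 2512.

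Seen from day 10, the share of regions already listed on day 5 was low over most of the score range and rose at its upper end. Of all day 10 regions, 0.347% overlapped a day 5 region. The share was 0.134% (0.102 to 0.176) at scores up to 100, 0.346% from 101 to 200, 0.463% from 201 to 400 and 0.362% (0.216 to 0.607) from 401 to 800. It was 1.21% (0.803 to 1.83) from 801 to 1600 and 10.0% (7.88 to 12.7) above 1600, or 60 of 598 regions.

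The day 5 score did not follow this division upward. The weak group on day 10 had the higher median score on day 5, 146.5 (quartiles 84 and 254.25), against 100.5 (64.25 and 176) in the strong group, and both ranges were wide and overlapped. Of the 57 shared regions with day 5 scores from 22 to 77, 29 (50.9%) had a day 10 score above 800. The numbers were 23 of 56 (41.1%) at day 5 scores from 78 to 125, 16 of 56 (28.6%) from 129 to 231 and 14 of 57 (24.6%) from 231 to 991. Over all shared pairs the scores of the days were not ordered alike, with Spearman's rho at 0.01 over pairs that all come from the same 2 libraries. Within the weak group rho was 0.39 over 144 pairs, so that regions ranked high on day 5 also tended to rank high there. Within the strong group it was 0.14 over 82 pairs. With the limit at 400, rho was 0.45 below it and -0.01 above, and with the limit at 1200 it was 0.31 and 0.24. A lower rho within a group also reflects the narrower range of scores left in it.

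**Figure D2:**
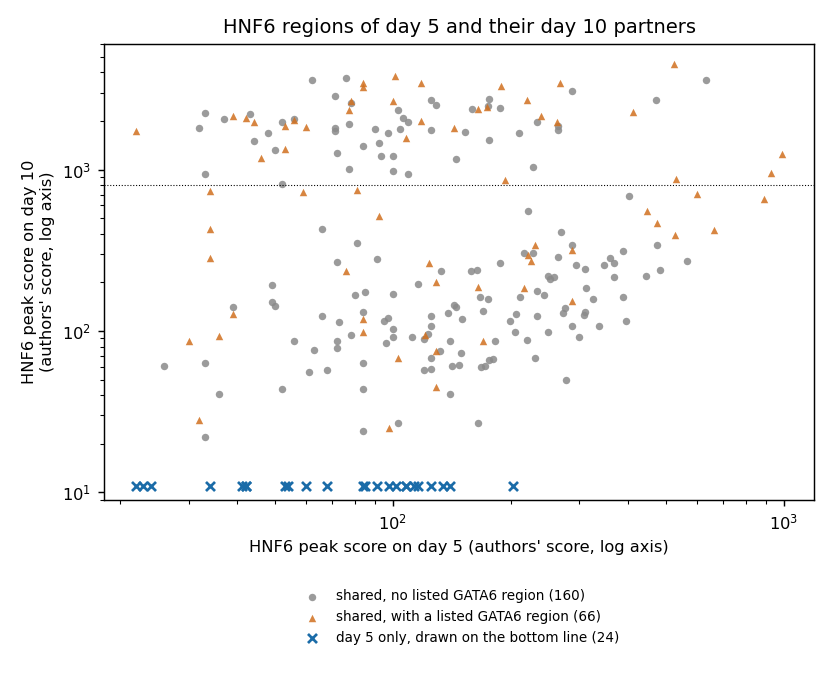
HNF6 score on day 10 against HNF6 score on day 5 (both log scale), 1 symbol per day 5 region: grey circles are the 160 shared regions without and orange triangles the 66 with a listed GATA6 region, and blue crosses on the bottom line are the 24 day 5 only regions, which have no day 10 score. The dotted line marks a day 10 score of 800; below it day 10 scores climb with day 5 scores, and the cloud above it spans nearly the whole range of day 5 scores.

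The strongest regions of day 5 were of both kinds. Of the 15 shared regions with the highest day 5 scores, all at 448 or more, 9 had a day 10 score up to 800 and 6 a higher one. The region at chr20:32319809-32320220, first on day 5 with a score of 991, had a day 10 score of 1254, the 98.4 percentile of that list. At chr11:65686623-65687057 the day 5 score was 893 and the day 10 score 658 (percentile 94.96). A day 5 region among the first 10, at chr9:135285311-135285582, had a score of 567 on day 5 and of 270 on day 10 (percentile 84.8). The lists differ in length and their scores share no scale, so these values show the place within each list and no change between days.

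Others among the 15 with day 10 scores up to 800 included chr22:37415489-37415779, with a day 5 score of 526 and a day 10 score of 396 (percentile 90.1). The region at chr8:97273832-97274156 had a day 5 score of 483 and a day 10 score of 238 (percentile 82.6). At chr1:11538933-11539193 the scores were 473 and 341 (percentile 88.3). At chr16:69599590-69599944, scored 599 on day 5, the day 10 region scored 707 (percentile 95.5) and was split into 2 sub-peaks. GATA6 was listed at 10 of the 15 regions, beside 29.2% of all shared regions and 9.66% of all day 10 regions. Its share did not rise with day 5 score over the shared regions as a whole. It was 33.3% at day 5 scores from 22 to 77, 28.6% from 78 to 125, 26.8% from 129 to 231 and 28.1% from 231 to 991. NKX6.1 was listed at 0 of the 15, which is no departure from its 3.2% of all day 10 regions.

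A smaller number led both lists. The region at chr19:1725520-1725861 was in the tenth place on day 5 (score 523) and the first on day 10 (score 4510). It lay among 17 other day 10 regions within 100 kb, the distance between midpoints. The region at chr19:461854-462230 ranked 5 on day 5 (score 632) and 13 on day 10 (score 3587), without a listed GATA6 region. At chr19:50169078-50169399 the scores were 470 and 2683, also without GATA6.

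Some other regions that were strongest on day 10 had ranked low on day 5. Of the 10 shared regions with the highest day 10 scores, 6 had a day 5 score under the day 5 median of 122. Of all shared regions 53.5% lay above that median, so this count does not stand apart. At chr7:83807376-83807602 the score was 101 on day 5 and 3818 on day 10. At chr16:30621519-30621695 it was 76 and 3668, and at chr7:25992320-25992494 it was 62 and 3596, without a listed GATA6 region at either. The regions at chr9:132330979-132331422 and chr22:23908418-23908873 each scored 84 on day 5 and had scores of 3434 and 3234 on day 10, both with GATA6. GATA6 was listed at 7 of these 10 regions and NKX6.1 at 1, beside 66.2% and 26.0% of the day 10 regions above 1600 without a day 5 region, so neither count stands apart.

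In most shared pairs the day 10 region was the wider one. The day 5 region lay wholly inside its day 10 partner in 151 pairs, or 66.8% (60.4 to 72.6), and the day 10 region was the wider in 193, or 85.4% (80.2 to 89.4). The median width was 229.5 bp on day 5 (quartiles 193 and 277.75) and 399.5 bp on day 10 (262.25 and 580.75). Over the whole lists the medians were 221 bp on day 5 and 261 bp on day 10. The part of the overlap rule in the width of the partners was not tested. The smallest overlap was 84 bp, so the 1 bp rule decided no pair. In the weak group the day 10 regions had a median width of 279.5 bp, and in the strong group 585 bp, while the day 5 widths of the groups were alike, at 231.5 and 226.5 bp. Midpoints lay a median of 26 bp apart in the weak group and 45.25 bp in the strong group, distances that the overlap rule itself keeps short.

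Day 10 regions with a day 5 region were more often split into sub-peaks, that is, listed under 1 peak number with several letters at the same coordinates. Of these 225 regions, 33 (14.7%, 10.6 to 19.9) had more than 1 sub-peak, against 2.11% of all day 10 regions. At scores from 201 to 400 the share was 23.5% (12.4 to 40.0) with and 3.93% (3.51 to 4.40) without a day 5 region, at median widths of 359 and 342.5 bp. Above 1600 the intervals overlapped, with 20.0% (11.8 to 31.8) and 12.1% (9.59 to 15.1). Of the 250 highest day 10 regions, 35 (14%) were split.

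Set against other day 10 regions of like score, shared regions had GATA6 more often at low and less often at the highest scores, by intervals that did not overlap. A listed GATA6 region overlapped 9.66% of all day 10 regions, and 66 shared regions at the day 5 coordinates, or 29.2% (23.7 to 35.4). The following values count overlaps with the day 10 region. At day 10 scores up to 100, 11 of 52 regions with a day 5 region had GATA6 (21.2%, 12.2 to 34.0), against 4.86% (4.65 to 5.07) of those without. From 401 to 800 it was 10 of 14 (71.4%, 45.4 to 88.3) against 28.3% (26.9 to 29.7). Above 1600 the order was the opposite, with 26 of 60 (43.3%, 31.6 to 55.9) against 66.2% (62.1 to 70.0). From 101 to 400 and from 801 to 1600 the intervals overlapped. Where they were apart, the regions with a day 5 region were the wider. Median widths were 239 and 220 bp up to 100, 440.5 and 402 bp from 401 to 800, and 640 and 564 bp above 1600. Scores within a step also differed. In the step up to 100, 29 of the 52 scored above 63 and below 100, against 12916 of all 38853 regions there. Above 1600 the median scores were 2189.5 and 1957. The parts of width and of score within a step in the overlaps were not tested. No GATA6 region was listed away from HNF6 of day 10, so the list does not cover GATA6 elsewhere.

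NKX6.1, measured on day 13, was rarer at shared regions than at other day 10 regions of like score in the uppermost range. It was found at 3.2% of all day 10 regions and, at the day 5 coordinates, at 5 shared regions, or 2.21% (0.949 to 5.07), a share near that background. Above a day 10 score of 1600, 5 of 60 regions with a day 5 region had it (8.33%, 3.61 to 18.1), against 140 of 538 others (26.0%, 22.5 to 29.9). In this range the regions with a day 5 region had the higher day 10 scores, with medians of 2189.5 and 1957, and the greater widths, at 640 and 564 bp. From 801 to 1600 the shares were 9.09% (2.53 to 27.8) and 14.0% (12.4 to 15.6), with overlapping intervals. At scores of 800 or lower, 0 of 143 regions with a day 5 region had NKX6.1 (Wilson interval up to 2.62%, and 2.1% by a limit of 3 counts), against 2.69% (2.57 to 2.82) of the 62365 others. These intervals also overlapped, so a lower share was not detectable there.

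The 5 shared regions with NKX6.1 at the day 5 coordinates all belonged to the strong group. Their day 10 scores were 1519 at chr3:22162645-22162871, 1566 at chr15:69853599-69853920 and 1735 at chr7:46734764-46734938. They were 1958 at chr12:71832761-71832988 and 3818 at chr7:83807376-83807602. GATA6 was listed at 4 of them, all but the chromosome 3 region. The region at chr7:46734764-46734938 had a day 5 score of 22, the lowest in the list.

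**Figure D3:**
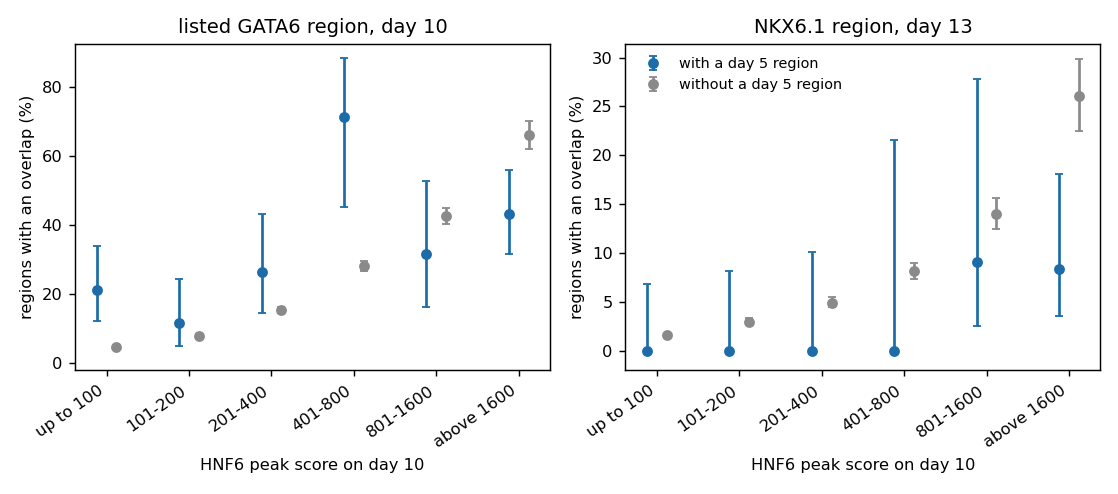
Share of HNF6 regions of day 10 (y axis, percent) that overlap a listed GATA6 region of day 10 (left) or an NKX6.1 region of day 13 (right), by HNF6 score on day 10 (x axis), for regions with (blue) and without (grey) a day 5 region. Points are shares and bars Wilson 95% intervals; the blue GATA6 point is above the grey one up to 800 and below it from 801 on, and the blue NKX6.1 points stay at 0 up to 800 and under 10% beyond, while the grey ones climb to 26.0%.

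The strongest day 10 regions were richer in both partners than the shared regions, a contrast at unlike scores and widths. The shared regions had day 10 scores from 22 to 4510. Their partners were counted at the day 5 coordinates, at a median width of 229.5 bp against 607.5 bp. Of the 250 highest scoring day 10 regions, with scores of 2066 or more, 168 (67.2%, 61.2 to 72.7) carried a listed GATA6 region. NKX6.1 was found at 69 of them (27.6%, 22.4 to 33.5). The next region below had a score of 2064. Of the 250, 35 (14%) overlapped a day 5 region, against 0.347% of all day 10 regions. Among those 35, GATA6 was found at 18 (51.4%, 35.6 to 67.0) and NKX6.1 at 3 (8.57%, 2.96 to 22.4). Among the other 215, GATA6 was found at 150 (69.8%, 63.3 to 75.5) and NKX6.1 at 66 (30.7%, 24.9 to 37.2). The NKX6.1 intervals of the 35 and the 215 were apart and the GATA6 intervals overlapped, at median HNF6 scores of 2648 and 2449.

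Of the 15 highest regions of day 10, 10 had no day 5 region and 5 had one. The 2 highest without one were chr9:110309093-110309737 (score 4237), with GATA6 and NKX6.1, and chr15:71698502-71699087 (score 4164), with GATA6 alone. The region at chr5:2802817-2803368 (score 3864) carried both partners and had 10 other day 10 regions within 100 kb. Those at chr10:131649064-131649737 (score 3774) and chr6:8195715-8196540 (score 3697) also carried both, among 18 and 15 such neighbours. Of these 15 regions, 12 had GATA6 and 7 had NKX6.1. The 3 without GATA6, at chr16:30621018-30621992, chr7:25992080-25992752 and chr19:461578-462294, were all regions already listed on day 5. This did not hold over the 250 highest, where most regions without GATA6 had no day 5 region. There GATA6 was found at 18 of 35 with and 150 of 215 without a day 5 region.

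Shared regions had somewhat fewer day 10 neighbours than the strongest day 10 regions, by their medians. In the weak group a median of 3 other day 10 regions (quartiles 2 and 6, highest 11) lay within 100 kb. In the strong group the median was 5 (4 and 6.75). For day 10 regions without a day 5 region it was 5 (3 and 8) at scores up to 800 and 6 (4 and 9) above, and for the 250 highest day 10 regions 6 (4 and 9). The quartile ranges overlapped. Of the shared regions, 11 (4.87%, 2.74 to 8.50) had no other day 10 region within 100 kb, against 2.13% (2.02 to 2.24) of all day 10 regions and 1 of the 250 highest (0.400%, 0.0706 to 2.23).

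A few day 5 regions lay close to each other. Of the shared regions, 7 (3.10%, 1.51 to 6.25) had another day 5 region within 12.5 kb. A pair at chr7:2393766-2393953 and chr7:2394219-2394494, 265 bp apart, met a single day 10 region with a score of 132, which is why the shared regions matched 225 day 10 regions, 1 fewer than their own number. Another pair, at chr17:77783812-77784075 and chr17:77795227-77795419, lay 11151 bp apart and had day 10 scores of 2469 and 1806. At chr19:50169078-50169399 and chr19:50179756-50179930 the day 10 scores were far apart, at 2683 and 84.

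Over the chromosomes, the number of shared regions went more with the number of protein-coding genes, and that of all day 10 regions more with chromosome length. Across 23 chromosomes (Y left out) the number of shared regions had a Pearson's r of 0.85 (Spearman's rho 0.80) with the number of protein-coding genes in RefSeq (GRCh38.p14, used for the chromosome of each gene alone). With the chromosome's extent, the farthest position in any list, r was 0.42. For all day 10 regions r was 0.45 with genes and 0.92 with extent. For the 215 regions among the 250 highest of day 10 without a day 5 region, r was 0.38 with genes and 0.65 with extent. Without chromosomes 1 and 19, r with genes and with extent was 0.73 and 0.39 for the shared regions, 0.55 and 0.92 for all day 10 regions, and 0.58 and 0.66 for the 215, where the contrast between genes and extent was then small. These values describe chromosomes of 1 library per day and carry no test.

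Single chromosomes varied around this. Chromosome 1 held 10.2% of the shared regions, 10.3% of genes and 5.60% of the 250 highest day 10 regions. Chromosome 19 held 7.52% of the shared regions and 7.24% of genes, but 1.09% of all day 10 regions. Chromosome 2 held 3.98% of the shared regions and 6.26% of genes, and 12% of the 250 highest day 10 regions. Chromosome X departed from the gene share, with 4.23% of genes but 1.77% of the shared regions, near its 2.05% of all day 10 regions, and it held 2 day 5 only regions and 0 of the 250 highest. Chromosome 15 held 3.08% of genes and 1.33% of the shared regions, and chromosome 22 held 2.25% and 3.98%.

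The 5 chromosomes with most genes per Mb of extent were 19, 17, 11, 16 and 22. They held 26.1% of protein-coding genes, 27.9% (22.4 to 34.1) of the shared regions and 10.6% (10.4 to 10.9) of all day 10 regions. The weak and strong groups did not differ beyond their intervals, at 28.5% (21.7 to 36.3) and 26.8% (18.4 to 37.3). The 250 highest day 10 regions held 17.2% (13.03 to 22.4) there, and the 215 of them without a day 5 region 15.3% (11.1 to 20.8). A position on a gene-rich chromosome does not show that a region is a promoter.

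**Figure D4:**
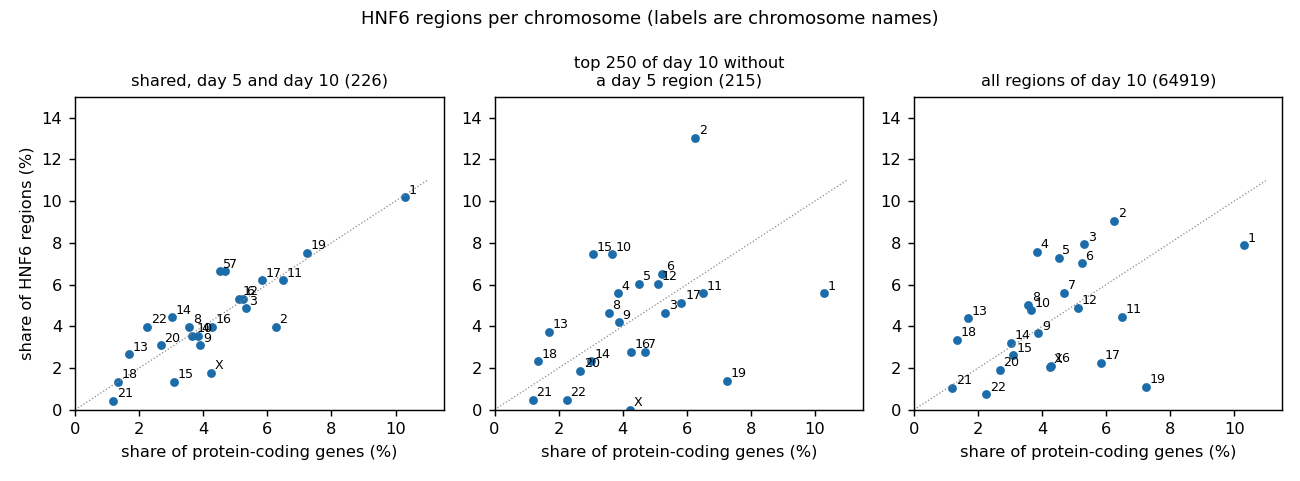
Share of HNF6 regions (y axis, percent) against share of protein-coding genes (x axis, percent) for each chromosome, labelled by name, with the dotted line of equal shares. Most chromosomes lie near the line for the shared regions (left), with chromosome 19 at 7.52% and chromosomes 15, 2 and X below it, whereas chromosome 19 lies far below it among the 215 strongest day 10 regions without a day 5 region (middle) and among all day 10 regions (right, 1.09%).

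The 24 regions found on day 5 only were narrow and mostly weak. Their scores ran from 22 to 203 with a median of 84.5, and 4 of 24 (16.7%, 6.68 to 35.9) lay above the day 5 median, against 121 shared regions (53.5%, 47.0 to 59.9). The 71 shared regions with scores above 203 had no counterpart among them. Their median width was 198 bp (quartiles 183.25 and 206.75), and 0 of 24 were split into sub-peaks. NKX6.1 was found at 0 of 24 (Wilson interval up to 13.8%, and 12.5% by a limit of 3 counts), so its 3.2% background share could not have been told from 0. GATA6 was also found at 0 of 24, which follows from its list, where all regions lie at HNF6 regions of day 10. On the 5 gene-rich chromosomes lay 7 of 24 (29.2%, 14.9 to 49.2), beside 10.6% of all day 10 regions and 26.1% of genes. Chromosome 20 held 4 of 24 (16.7%), the most of any chromosome. It held 1.91% of all day 10 regions, 3.10% of the shared regions and 2.68% of genes. The chromosome was singled out for its count, which was not tested.

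Of the 24 regions, 8 lay beside a day 10 region without touching it. Their gaps were between 525 and 1563 bp, so that 33.3% (18.0 to 53.3) had a day 10 region within 2 kb. Of the shared regions, 22.1% (17.2 to 28.0) had a further day 10 region at that distance, beside the one they overlapped. These intervals overlapped, and the share over all day 10 regions is not given here. The smallest gap, 525 bp, belonged to chr5:89854371-89854546 (day 5 score 60), beside a day 10 region with a score of 183. The gap was 641 bp at chr11:64795094-64795305 (score 113) and 766 bp at chr20:3388350-3388562 (score 54), beside day 10 scores of 152 and 139. All of these neighbours scored far under 800.

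The other near regions had neighbours of the same order. At chr6:110500934-110501113 (score 85) the gap was 794 bp, and an NKX6.1 region lay 344 bp away, the nearest of any of the 24. At chr5:115152422-115152607 (score 98) the gap was 1199 bp and at chr17:34136118-34136427 (score 134), the widest of the 24 at 310 bp, it was 1269 bp. The gap was 1458 bp at chr6:24721176-24721373 (score 116) and 1563 bp at chr4:26322323-26322506 (score 53). Over the 8 regions the neighbouring day 10 scores ran from 21 to 183.

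The remaining 16 regions had no day 10 region closer than 7262 bp. The strongest were chr19:17186263-17186489 (score 203, gap 35411 bp), chr19:48281734-48281935 (score 140, gap 12384 bp) and chr1:27816868-27817071 (score 125, gap 23343 bp). Those at chr17:39890894-39891095 and chrX:52963936-52964161 both scored 108, with gaps of 46717 and 13286 bp. The latter lay 13285 bp from a shared region, at chrX:52950417-52950650. The region at chr8:48873265-48873453 (score 102) was the most isolated, 114945 bp from the nearest day 10 region.

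Regions of lower score completed the set. They were chr14:75348434-75348626 (score 91, gap 9453 bp), chr2:86790122-86790317 (score 84, gap 16542 bp) and chr20:30458157-30458331 (score 68, gap 26787 bp). Another 7 of the 24 scored under 50. Of these, chr11:568671-568886 and chrX:52004652-52004832 scored 42, with gaps of 7262 and 19209 bp, and chr20:44600264-44600438 scored 41, with a gap of 17094 bp. At chr16:68679730-68679930 (score 34) and chr20:3220004-3220184 (score 24) the gaps were 97725 and 63045 bp. The lowest scores, 23 at chr1:84464805-84465009 and 22 at chr4:189359637-189359834, came with gaps of 10083 and 27431 bp. The lists carry no read depth, and a region missing on day 10 cannot be told apart from one below the limit of that list.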

How the data were processed

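HNF6 peak lists of day 5 and day 10 were compared, with those of GATA6 (day 10) and NKX6.1 (day 13) as further readouts. Groups were taken from sample titles. The authors deposited a whole-number score per peak, without a header or unit. Bowtie2 2.3.4.1, MACS2 2.1.1.20160309 and hg19 are named, without settings, per the submitters' processing notes. Inputs were controls for base composition and open chromatin, per the labels. The filters, which would set which weak regions are listed, are not stated in these sources.

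Rows with equal coordinates were merged, with the highest score kept, and their number was taken as the number of sub-peaks (255 to 250 regions on day 5, 66373 to 64919 on day 10). Overlaps, gaps between edges and neighbours were computed with Python 3.11.15, pandas 2.3.3 and numpy 2.4.6, tested on simulated data and checked against bedtools 2.31.1. Wilson 95% intervals came from statsmodels 0.14.6, correlations from scipy 1.17.1.

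Planned classes of position, gene lists, base composition and motifs were not run, because only a gene table of GRCh38.p14 was at hand. It gave the chromosome of 20037 protein-coding genes. Members and measures were chosen with earlier results of these data known. Regions named are the 15 strongest shared by day 5 score, the 10 strongest shared by day 10 score, the 15 strongest of day 10 and the 24 of day 5 only. The text names those that show a pattern and all 24 of the last set. The 5 shared regions with NKX6.1 and the neighbouring pairs were named after their values were seen.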

Additional observations from a re-analysis of the deposited data

How the results depend on the processing

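All alternatives here were added after seeing the data. Other windows for promoters and other motifs were not run, because no annotation or sequence of hg19 was used here. Of 36 shares recomputed for 8 results, 30 stayed within the Wilson interval of the reported share and 6 moved out of it. The 6 recomputed correlations over chromosomes, judged by no interval here, were 0.73 to 0.87 for shared regions with genes (0.85 reported) and 0.91 to 0.93 for all day 10 regions with extent (0.92 reported). The share of day 5 regions that overlapped day 10 was 96.8% for regions above the median day 5 score and 85.2% with midpoints within 200 bp. GATA6 at the strongest day 10 regions was 60.3% among the 1000 highest scores. The share of shared regions with a day 10 score above 800 was 26.4% for regions above the median day 5 score. The share of day 5 only regions with a day 10 region within 2 kb was 16.7% at a distance of 1 kb. It was 56.8% with midpoints within 200 bp, since pairs that overlap off centre then count as day 5 only. NKX6.1 stayed at 0 of the day 10 regions with a day 5 region at score limits of 400 and 1200. At 400 this had to follow, since 0 of 143 had it up to 800. The same holds for settings that keep only part of the overlapping pairs. Those shares are among the 30 that stayed within the interval. No paired analysis was possible because each day had 1 library. Depth is unknown, so a region missing from a list cannot be told from one below its limit.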
